A study of Mus musculus with 4 samples.

Results

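Peptide hormones and many secreted or surface proteins are made as longer precursors, and 10 genes of the enzymes that mature them were followed in group 2 innate lymphoid cells (ILC2s) of the mouse colon. They are the proprotein convertase genes Pcsk1, Pcsk2, Pcsk5, Pcsk6, Pcsk7 and Furin, the carboxypeptidase genes Cpe and Cpd, the amidating enzyme gene Pam, and Scg5, which encodes the chaperone and inhibitor of the convertase PCSK2. They were picked by symbol from the 27179 gene identifiers of the count table, and all 10 were found. The 10 were put forward with the diet comparison of these same libraries in view, in which Pcsk1 lay near the top of the ranking. Their differences between diets are therefore given as a description, and the calls of the fit over all genes are no independent support for them.

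The libraries came from colonic ILC2s, sorted from C57BL/6J mice that ate a high-fiber diet (2 libraries) or a control diet (2 libraries), with 1 mouse per library. The labels name no transgene or allele in either group and give neither the sort gates, the age of the mice, the kind of fiber nor the length of feeding. Totals were 20750263 to 29263068 counts in the high-fiber libraries and 20253987 to 30406730 counts in the control libraries. High-fiber library 2 had the fewest genes with a count (12685 of a range up to 13399) and stood apart on the first principal component, at 116 beside -59.3 to -10.0 for the others. CPM values are counts scaled to library size with TMM factors, paired values are always library 1 and then library 2, and log2 fold changes run high-fiber over control.

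Proprotein convertases are serine proteases that cut precursors after pairs of basic residues. Furin works along the constitutive route of nearly every cell, from the trans-Golgi network to the surface, while PCSK1 and PCSK2 act in secretory granules of neurons and endocrine cells. A carboxypeptidase then trims the exposed basic residues, CPE in granules and CPD in the trans-Golgi network, and PAM converts a C-terminal glycine into an amide, which peptides such as CGRP need for full activity. ILC2s are lymphocytes that answer epithelial alarm signals with type 2 cytokines, and mouse ILC2s also make peptides such as CGRP and the enkephalin precursor.

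Promoter sequences from RefSeq (GRCm38.p6) were matched for 9 of the 10 genes, and Cpe was not among them. The upstream sequences of Pcsk1 and Furin are shown because these genes had the highest levels per transcript length of the 10 on the high-fiber diet. Each line gives the 250 bases before an annotated start site, on the strand of the gene, 5′ to 3′, with capitals marking a full cyclic AMP response element (TGACGTCA), the palindrome bound by CREB family factors.
Pcsk1, chr13:75089607-75089856, plus strand: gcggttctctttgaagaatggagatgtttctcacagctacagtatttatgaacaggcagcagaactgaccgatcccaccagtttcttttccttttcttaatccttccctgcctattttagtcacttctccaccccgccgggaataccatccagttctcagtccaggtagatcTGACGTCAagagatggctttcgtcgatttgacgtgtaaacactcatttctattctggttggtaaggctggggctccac
Furin, upstream start site, chr7:80405437-80405686, minus strand: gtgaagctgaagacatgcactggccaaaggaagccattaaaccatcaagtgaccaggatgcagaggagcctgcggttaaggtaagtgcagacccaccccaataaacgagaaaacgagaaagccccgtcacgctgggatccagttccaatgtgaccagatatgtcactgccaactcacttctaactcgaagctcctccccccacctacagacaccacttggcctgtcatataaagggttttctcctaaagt
Furin, downstream start site, chr7:80402813-80403062, minus strand: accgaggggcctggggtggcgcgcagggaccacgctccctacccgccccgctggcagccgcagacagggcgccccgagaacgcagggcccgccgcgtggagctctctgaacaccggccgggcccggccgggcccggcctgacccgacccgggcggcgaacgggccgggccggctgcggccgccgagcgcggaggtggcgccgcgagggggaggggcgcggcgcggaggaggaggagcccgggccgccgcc

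Searches on both strands of 300 bases per start site, 250 before it and 50 after, covered the cyclic AMP response element, the AP-1 motif TGANTCA and the EGR motif GCGTGGGCG. None of these motifs holds another in full. The 9 genes had 11 such windows. The RefSeq span of the Pcsk1 gene begins at 75089420, upstream of the printed bases, so these lie inside that span. The cyclic AMP response element was in the Pcsk1 window alone, beginning 78 bases before the start site, and 1.79% of all 32851 promoter windows in the table held it. The AP-1 motif (7.81% of all windows) and the EGR motif (0.612%) were in none of the 11. A match of letters is no evidence of binding, and a window without a match says nothing of the factor. The Pcsk1 window had 49.3% G and C, the lowest share of the 11, and the downstream Furin window 82.3%, the highest, beside a median of 52.7% over the table.

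Of the 10 genes, 8 had at least 1 count in these libraries, and Pcsk5 and Pcsk6, convertases of the constitutive route, had 0 counts in all 4. Over the whole table, 15425 of 27179 identifiers had at least 1 count. A count of 0 allows up to 3 counts per library, or 0.0993 to 0.147 CPM. Pcsk2 entered with 7 and 0 counts in the high-fiber libraries, against 3 and 1 in the control libraries, too few for the test, and its pooled ratio, high-fiber over control, was 1.82 (95% counting interval 0.462 to 8.47). The other 7 passed the filter on low counts, Cpe through its control libraries alone.

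Pcsk1 was the convertase gene with the clearest separation by diet. It stood at 167 and 176 CPM in the high-fiber libraries, against 37.5 and 30.8 CPM in the control libraries. Both high-fiber libraries lay above both control libraries, and the gap was many times the spread within a diet. The means were 172 ± 6.32 CPM on the high-fiber diet and 34.2 ± 4.79 CPM on the control diet (SD, n = 2 each), a log2 fold change of 2.32 ± 0.26 (SE). It was 2.28 without high-fiber library 2 and 2.38 without high-fiber library 1. These means rested on 8423 counts in the high-fiber libraries and 1780 in the control libraries. In bulk RNA of sorted cells, a larger share of cells with a transcript and more transcript per cell cannot be told apart. Pcsk1 (NCBI gene 18548) spans chromosome 13 from 75089420 to 75134861 on the plus strand, and no exon of another annotated gene overlapped its exons.

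Markers of enteroendocrine cells and enteric neurons, which also use Pcsk1, were low. Markers of other cell types are given further below. Enteroendocrine cells, which carry Pcsk1 and Cpe, had 11 of 12 markers, Chga, Chgb and Neurod1 included, at 0 in all libraries. Enteric neuron markers (5 of 10 at 0, Snap25 and Gap43 among them) summed to 1.67 to 2.56 CPM in the high-fiber libraries and 0.191 to 0.927 CPM in the control libraries. That sum moved with Pcsk1, mainly through Uchl1, and its part in the result was not tested.

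Furin, the convertase of the constitutive route, was at 205 and 148 CPM in the high-fiber libraries, against 89.2 and 126 CPM in the control libraries. The high-fiber libraries were again above both control libraries, but the nearest libraries of the diets lay closer to each other than the libraries within either diet. The means were 177 ± 40.3 and 108 ± 26.2 CPM on the high-fiber and control diets (SD, n = 2 each), a log2 fold change of 0.73 ± 0.29 (SE). Leaving out a library kept the direction, with log2 fold changes from 0.49 to 0.99. Furin (NCBI gene 18550) spans chromosome 7 from 80389194 to 80405441, and its exons share 118 bases with the antisense gene Gm44851.

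Pcsk7, a convertase of the trans-Golgi network found in many tissues, split the high-fiber libraries. It stood at 48.5 and 9.77 CPM in the high-fiber libraries, against 27.3 and 32.2 CPM in the control libraries. The control libraries lay between the high-fiber libraries, so the diets overlapped. The means of 29.1 ± 27.4 CPM on the high-fiber diet and 29.8 ± 3.46 CPM on the control diet (SD, n = 2 each) gave a log2 fold change of 0.039 ± 0.65 (SE), and the sign turned with the setting. Without high-fiber library 2 the value was 0.71, and without high-fiber library 1 it was -1.57. Exons of Pcsk7 share 415 bases with Rnf214 and 108 bases with Tagln on the opposite strand, and the strand setting of the counting is not given in the sources used here. Rnf214 was likewise highest in high-fiber library 1 and lowest in high-fiber library 2, with 37.8 and 11.0 CPM in the high-fiber libraries and 20.4 and 13.5 CPM in the control libraries. Tagln stayed below 1 CPM in all 4.

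**Figure D1:**
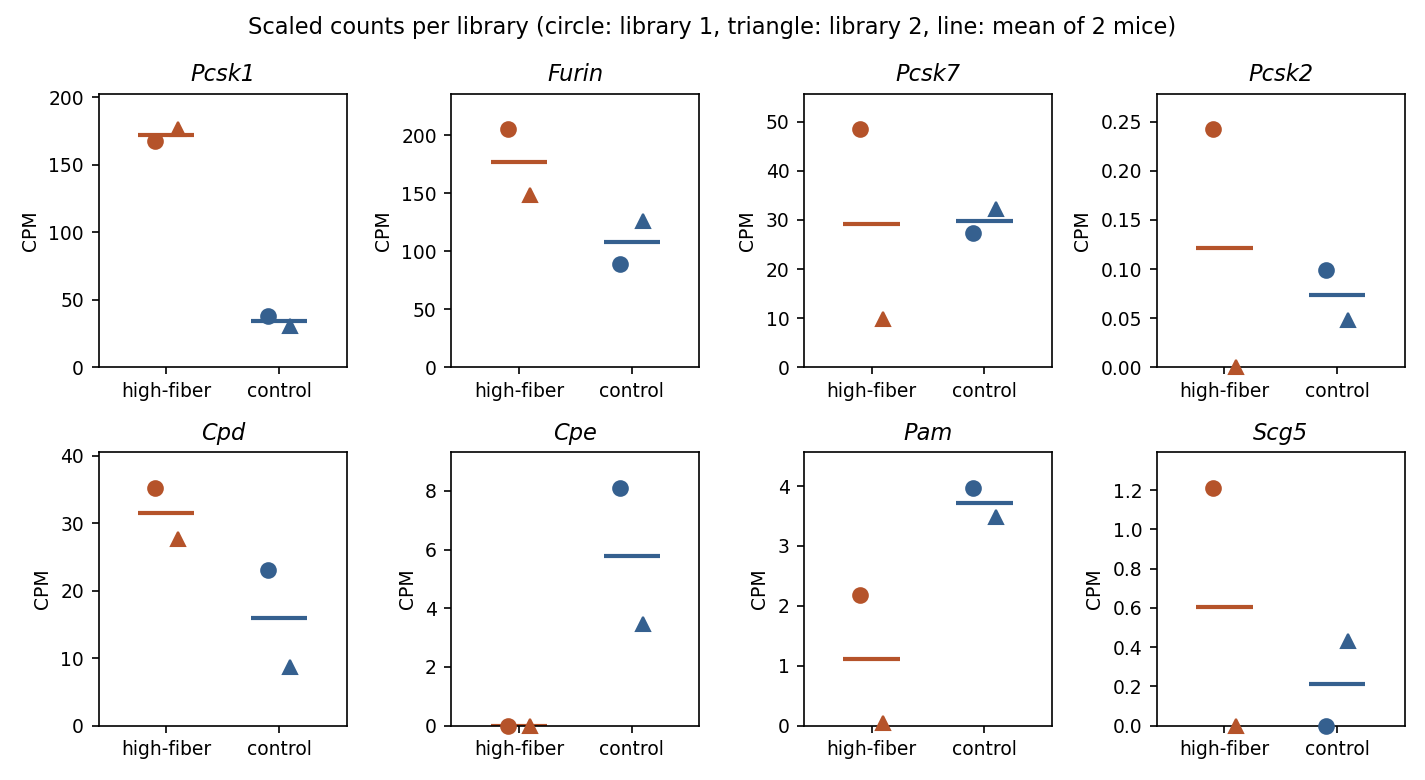
Scaled counts (CPM, linear axes that start at 0) of the 8 processing genes with any count, for the 2 high-fiber and 2 control libraries. Circles are library 1, triangles library 2 and lines the mean of each diet. Pcsk1 lies at 167 and 176 CPM on the high-fiber diet, against 37.5 and 30.8 CPM on the control diet, and Cpe is at 0 in both high-fiber libraries.

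The carboxypeptidase genes lay on opposite sides between the diets. Cpe, which encodes the granule enzyme, had 0 counts in both high-fiber libraries, against 245 and 73 counts in the control libraries (8.11 and 3.48 CPM). With 3 counts allowed over the high-fiber libraries together, Cpe was at least 102-fold lower there. This bound pools the libraries of a diet, covers counting error only and leaves out the spread between mice. The last enteroendocrine marker, Syp, a synaptic vesicle protein gene, was at 0 CPM in both high-fiber libraries, against 1.69 and 0.095 CPM in the control libraries, and moved with Cpe. Mast cell markers (6 of 8 at 0, including the protease genes Mcpt1 and Mcpt4) summed to 0 to 1.11 CPM in the high-fiber libraries. In the control libraries they summed to 1.95 to 2.45 CPM, and so moved with Cpe. Among them, Cpa3 had 0 counts in both high-fiber libraries, against 40 and 21 counts in the control libraries. Fcer1a had 32 and 0 counts in the high-fiber libraries, against 34 and 20 in the control libraries. The part of Syp and of these markers in the Cpe difference was not tested. Cpd, which encodes the trans-Golgi enzyme, was at 35.3 and 27.7 CPM in the high-fiber libraries, against 23.0 and 8.77 CPM in the control libraries. Its diets did not overlap, and the log2 fold change was 0.94 ± 0.51 (SE). Control library 2 held the low end: without it the value was 0.46, and without control library 1 it was 1.85. Cpe (NCBI gene 12876) spans chromosome 8 from 64592542 to 64693109 and Cpd (NCBI gene 12874) chromosome 11 from 76777208 to 76847008.

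Pam, the single gene for peptide amidation, was low in all libraries. It was at 2.18 and 0.049 CPM in the high-fiber libraries, against 3.97 and 3.48 CPM in the control libraries. Both high-fiber libraries lay below both control libraries, and the lower of them held a single count. The log2 fold change of -1.54 ± 1.02 (SE) rested on that library: it was -0.79 without high-fiber library 2 and -6.09 without high-fiber library 1. Exons of Pam share 188 bases with B230216N24Rik on the same strand, which had at most 6 counts in a library. Scg5 had 35 and 0 counts in the high-fiber libraries, against 0 and 9 counts in the control libraries. Each diet thus had 1 library with Scg5 and 1 without, the diets overlapped, and Pcsk2, the convertase it serves, had at most 7 counts in a library. The pooled Scg5 ratio, high-fiber over control, was 4.04 (95% counting interval 1.90 to 9.56). This interval pools the libraries of a diet and leaves out the spread between mice. The fitted log2 fold change of Scg5 was 1.97 ± 1.95 (SE).

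Over the whole table, the quasi-likelihood test of edgeR, adjusted by Benjamini-Hochberg to a threshold of 0.05, called 4 of 11841 tested genes, all higher on the high-fiber diet, which is 0.0338% of them. Of the 7 tested processing genes it called 0. At an unadjusted p under 0.05 there were 3, Pcsk1 and Furin higher and Cpe lower, where 8.8% of all tested genes lay. DESeq2 called 2, Pcsk1 higher and Cpe lower, where it called 1.82% of all genes in either direction, 1.21% higher and 0.607% lower. The diets did not overlap for 5 of the 7, beside 38.2% of all tested genes: high-fiber libraries lay above control libraries for Pcsk1, Furin and Cpd (18.5% of all) and below them for Cpe and Pam (19.6% of all). Nothing is read from these counts, because the genes were proposed from this comparison.

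**Figure D2:**
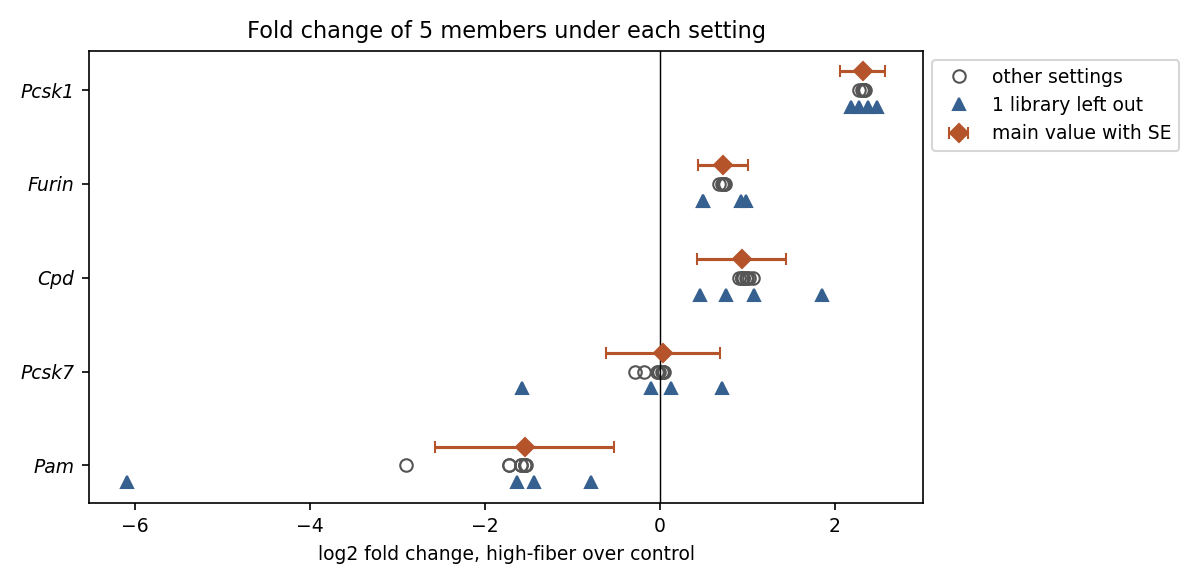
Log2 fold change (high-fiber over control) of Pcsk1, Furin, Cpd, Pcsk7 and Pam. Diamonds with bars are the values of the text with their SE, circles other settings of scaling, filter and test, and triangles fits without 1 library. Pcsk1 stays between 2.19 and 2.48, Pcsk7 falls on both sides of 0, and Pam reaches -6.09 without high-fiber library 1; Cpe and Scg5 are left out, since their fitted values depend on libraries at 0.

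Levels were compared between genes as CPM per kilobase of the longest coding transcript in GENCODE M21. On the high-fiber diet the order was Furin (47.4 and 34.2), Pcsk1 (33.2 and 35.0), Pcsk7 (12.5 and 2.52) and Cpd (4.44 and 3.48), and Furin and Pcsk1 overlapped there, as did Pcsk7 and Cpd. On the control diet it was Furin (20.6 and 29.1), Pcsk7 (7.05 and 8.31), Pcsk1 (7.45 and 6.11), Cpe (3.83 and 1.64) and Cpd (2.90 and 1.10). Furin stood above the rest in the control libraries, while Pcsk7 and Pcsk1 overlapped, and so did Cpe and Cpd. Pam and Scg5 had mean levels under 1 CPM per kilobase on either diet.

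Pcsk1 took a larger share of the transcripts of the 6 convertase genes followed here on the high-fiber diet. Its share of the summed CPM per kilobase of the 6 convertase genes was 35.6% and 48.8% in the high-fiber libraries, against 21.2% and 14.0% in the control libraries. Furin made up 50.9% and 47.7% in the high-fiber libraries, against 58.6% and 66.9% in the control libraries. The Pcsk7 share was 13.4% and 3.51% in the high-fiber libraries, against 20.1% and 19.1% in the control libraries. The sum itself was 93.2 and 71.7 in the high-fiber libraries, against 35.1 and 43.6 CPM per kilobase in the control libraries. Pcsk4 and Mbtps1, further convertase genes described below, are not in this sum and would lower the shares. Mbtps1 was at 13.6 and 9.44 CPM per kilobase in the high-fiber libraries, against 12.2 and 10.7 in the control libraries. Shares depend on the length given to each gene: with the union of all annotated exons, Pcsk1 reached 48.5% and 63.6% in the high-fiber libraries, against 30.9% and 21.6% in the control libraries. The diets did not overlap with either length. The order of Pcsk1 and Furin on the high-fiber diet turned with the length: the ratio of Pcsk1 to Furin was 0.701 and 1.02 in the high-fiber libraries, against 0.362 and 0.210 in the control libraries, by the longest coding transcript. By the union of exons it was 1.33 and 1.95 in the high-fiber libraries, against 0.690 and 0.399 in the control libraries.

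**Figure D3:**
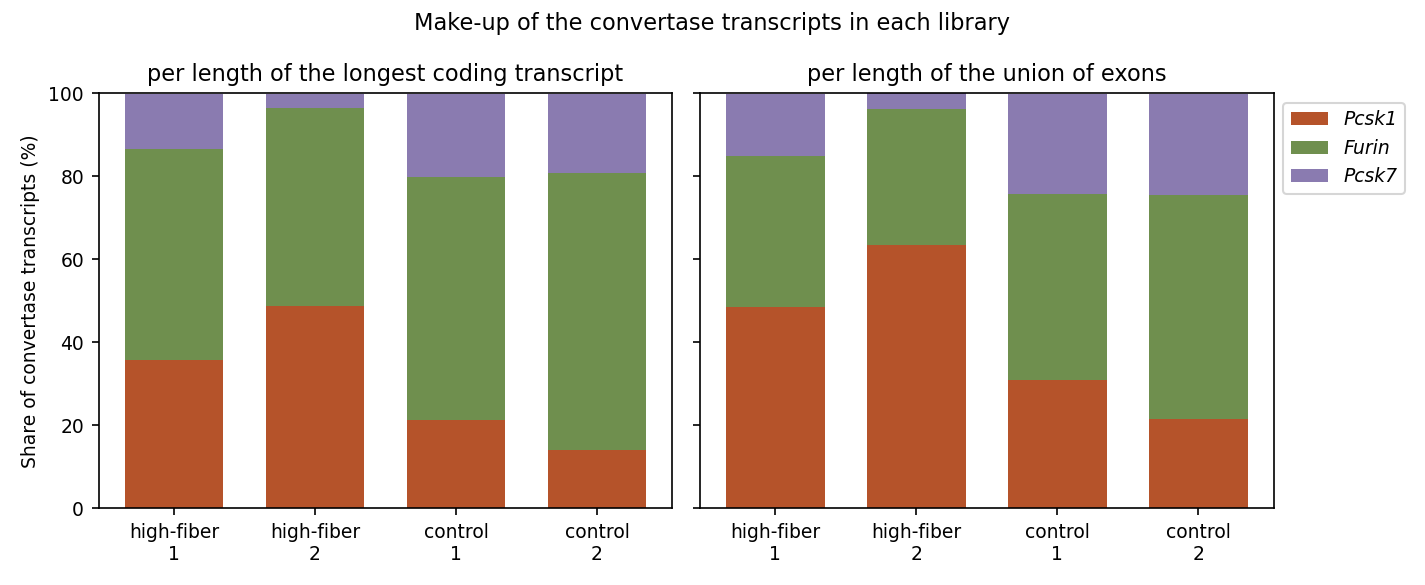
Share (%) of Pcsk1, Furin and Pcsk7 in the convertase transcripts of each library, per length of the longest coding transcript (left) and of the union of exons (right); Pcsk2, under 0.1%, is too small to see. Pcsk1 takes 35.6% and 48.8% in the high-fiber libraries, against 21.2% and 14.0% in the control libraries, on the left.

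The 5 genes whose pattern over the 4 libraries lay nearest to that of Pcsk1 were Zbtb6, 1700061F12Rik, Itm2a, Hopx and Dapk3. Likeness was the Euclidean distance between centred log2 CPM values, among 8895 tested genes with a mean of at least 5 CPM, and ran from 0.244 for Zbtb6 to 0.512 for Dapk3. Zbtb6, a zinc finger gene, was at 14.6 and 14.8 CPM in the high-fiber libraries, against 3.87 and 2.86 CPM in the control libraries. Hopx, which encodes a homeodomain protein that does not bind DNA, was at 44.6 and 41.5 CPM in the high-fiber libraries, against 11.8 and 10.6 CPM in the control libraries. The expression of 1700061F12Rik was 34.6 and 31.1 CPM in the high-fiber libraries, against 5.79 and 5.72 CPM in the control libraries. For Itm2a, which encodes an integral membrane protein, the means were 15.2 ± 1.21 CPM on the high-fiber diet and 3.68 ± 0.052 CPM on the control diet (SD, n = 2 each). Dapk3, a death-associated protein kinase gene, had 36.4 and 29.9 CPM in the high-fiber libraries, against 7.81 and 4.24 CPM in the control libraries. All 5 were higher in both high-fiber libraries, which the measure of likeness selects for.

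Around the processing enzymes, 166 genes in 7 lists by role were followed, of which 88 were tested. EdgeR's quasi-likelihood test called 0 of the 88, DESeq2 called 5 higher and 0 lower, and 7 higher and 3 lower genes had unadjusted p below 0.05. Over all genes, these shares were 0.0338% for edgeR, 1.82% for DESeq2 and 8.8% for the unadjusted p. Npy passed the filter on low counts through its high-fiber libraries alone. The 3 lower genes (Ucn2, Cpa3 and Slc23a1) passed it through their control libraries alone. The p-values of these genes are therefore no support for a difference. The log2 fold change was above 0 for 45 of the 88 and below 0 for 43, and its median was 0.0072, beside -0.016 over all tested genes. These lists were drawn up with the difference in Penk and Calca known.

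Among the precursors that such enzymes cut, 37 of 52 listed peptide genes had 0 counts in every library and 15 had a count. Over the whole table, 15425 of 27179 identifiers had a count. Of the 52 precursors 10 were tested. EdgeR called 0 of the 10, while 4 higher and 1 lower genes had unadjusted p below 0.05. Calca, which encodes calcitonin and CGRP, was at 2724 and 1873 CPM in the high-fiber libraries, against 1216 and 658 CPM in the control libraries (log2 fold change 1.29 ± 0.35, SE). Penk, the enkephalin precursor, was at 313 and 211 CPM in the high-fiber libraries, against 19.8 and 4.34 CPM in the control libraries. Grp, which encodes gastrin-releasing peptide, was at 29.3 and 33.8 CPM in the high-fiber libraries, against 1.89 and 0.286 CPM in the control libraries. All 3 had high-fiber libraries above control libraries. Control library 1 lowered the log2 fold changes of Penk (4.35 ± 0.55, SE) and Grp (4.68 ± 0.70, SE), which were 5.92 and 6.76 without it. Without control library 2, that of Penk was 3.73 and that of Grp 4.05. DESeq2 called them higher together with Npy, the neuropeptide Y gene, which had 357 and 47 counts in the high-fiber libraries, against 0 and 0 in the control libraries. With the 3 counts allowed over the control libraries together, Npy was at least 140-fold higher on the high-fiber diet. This bound pools the libraries of a diet and leaves out the spread between mice. The high-fiber libraries were unequal, at 12.4 and 2.31 CPM of Npy. Others lay the opposite way, and like Npy they were named after their values were seen. Ucn2, a urocortin gene, had 0 counts in both high-fiber libraries, against 50 and 33 counts in the control libraries. By the same floor, and with the same limit, it was at least 26.6-fold lower. Calcb, the other CGRP gene, was at 2.84 and 0.098 CPM in the high-fiber libraries, against 9.30 and 4.53 CPM in the control libraries (-2.10 ± 0.99, SE). Of the 10 tested precursors, 4 lay above 0 and 6 below 0 on the log2 scale, around a median of -0.040, also with genes at 0 in a diet set to their bound. Per kilobase, the Penk level was 6.50 and 4.17 times the Pcsk1 level in the high-fiber libraries, against 1.83 and 0.490 times in the control libraries.

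Of 23 listed granin and granule sorting genes of the dense-core granule, 12 had 0 counts in all libraries and 11 had a count. Over the whole table, 15425 of 27179 identifiers had a count. The granin genes Chga, Chgb, Scg2 and Scg3 and the PCSK1 inhibitor gene Pcsk1n were among the 12 at 0. Of 8 tested, edgeR and DESeq2 called 0, none was under an unadjusted p of 0.05, and the median log2 fold change was -0.45. Rab27b, a GTPase of granule docking, was at 277 and 310 CPM in the high-fiber libraries, against 352 and 303 CPM in the control libraries, with overlapping diets. Sorl1, a sorting receptor, was at 75.3 and 49.7 CPM in the high-fiber libraries, against 132 and 80.7 CPM in the control libraries (-0.76 ± 0.35, SE). Rab27a, the related GTPase, had a log2 fold change of 0.53 ± 0.53 (SE).

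Among other convertases, inhibitors and genes of furin traffic, edgeR and DESeq2 called 0 of 11 tested genes, none under an unadjusted p of 0.05, with a median log2 fold change of 0.34. Vps35, a retromer subunit of retrieval from endosomes, was at 253 and 291 CPM in the high-fiber libraries, against 179 and 202 CPM in the control libraries (0.52 ± 0.22, SE). Pacs2, related to the sorting adaptor that returns furin to the trans-Golgi network, was at 33.4 and 9.28 CPM in the high-fiber libraries, against 53.1 and 48.4 CPM in the control libraries (-1.19 ± 0.53, SE). That value was -2.43 without high-fiber library 1 and -0.61 without high-fiber library 2. Log2 fold changes were 0.56 ± 0.35 for the adaptor subunit gene Ap1m1 and 0.58 ± 0.38 for the sorting nexin gene Snx15 (SE). Pcsk4 and Mbtps1, further convertase genes, were added here after their values were seen. Pcsk4, known for its role in sperm, was at 8.52 and 1.86 CPM in the high-fiber libraries, against 1.56 and 0.524 CPM in the control libraries. Mbtps1, the site-1 protease of the Golgi, had a log2 fold change of 0.013.

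Of 6 tested genes among other carboxypeptidases edgeR called 0, while 2 higher and 1 lower genes had unadjusted p below 0.05, and DESeq2 called 1, Cpm, higher. Cpm, a membrane-anchored carboxypeptidase that removes C-terminal basic residues outside the cell, was at 223 and 155 CPM in the high-fiber libraries, against 97.1 and 91.7 CPM in the control libraries. Its high-fiber libraries lay above both control libraries, with a log2 fold change of 1.01 ± 0.27 (SE). Scpep1, a lysosomal-type serine carboxypeptidase, was at 48.3 and 59.8 CPM in the high-fiber libraries, against 21.3 and 32.8 CPM in the control libraries (1.01 ± 0.36, SE). Ctsa, the lysosomal protective protein, overlapped between the diets, at 300.4 and 204 CPM in the high-fiber libraries, against 279 and 226 CPM in the control libraries.

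All 13 genes listed under amidation cofactor supply were tested, and edgeR and DESeq2 called 0. Unadjusted p was below 0.05 for 1 higher gene, Qpct, which itself supplies no cofactor, and for 1 lower gene, Slc23a1. The median log2 fold change was -0.016. Atox1, the copper chaperone of the secretory route, was at 115 and 143 CPM in the high-fiber libraries, against 88.4 and 104 CPM in the control libraries. The copper importer gene Slc31a1 had a log2 fold change of -0.42 ± 0.28 (SE). Qpct, which caps the N-terminus of peptides as pyroglutamate, was at 34.2 and 46.1 CPM in the high-fiber libraries, against 16.1 and 19.5 CPM in the control libraries (1.17 ± 0.38, SE).

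For peptide trimming and breakdown edgeR and DESeq2 called 0 of 16 tested genes (median log2 fold change 0.072), none under an unadjusted p of 0.05. Ctsb, the lysosomal protease cathepsin B, had a log2 fold change of 0.18 ± 0.20 and Ide, the insulin-degrading enzyme, one of 0.048 ± 0.22 (SE). Lta4h, an aminopeptidase that also makes a leukotriene, was at -0.38 ± 0.22, and Nln, the neurotensin-cleaving neurolysin, at -0.94 ± 0.78 (SE). High-fiber library 2 set the value of Nln, which was -3.37 without high-fiber library 1 and -0.23 without high-fiber library 2. For furin-type substrates they called 0 of 24 tested genes (median 0.068), none under an unadjusted p of 0.05. Atp6ap1, a proton pump accessory subunit, had a log2 fold change of 0.19 ± 0.29 and the integrin gene Itgav one of 0.12 ± 0.34 (SE). Vegfc, a lymphatic growth factor, was at 29.4 and 25.8 CPM in the high-fiber libraries, against 16.8 and 3.53 CPM in the control libraries. Its log2 fold change of 1.35 ± 0.62 (SE) was 2.97 without control library 1 and 0.72 without control library 2. The insulin receptor gene Insr was at 5.30 and 28.3 CPM in the high-fiber libraries, against 4.90 and 4.48 CPM in the control libraries, so high-fiber library 2 set its log2 fold change of 1.74, which was 0.16 without it and 2.61 without high-fiber library 1.

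**Figure D4:**
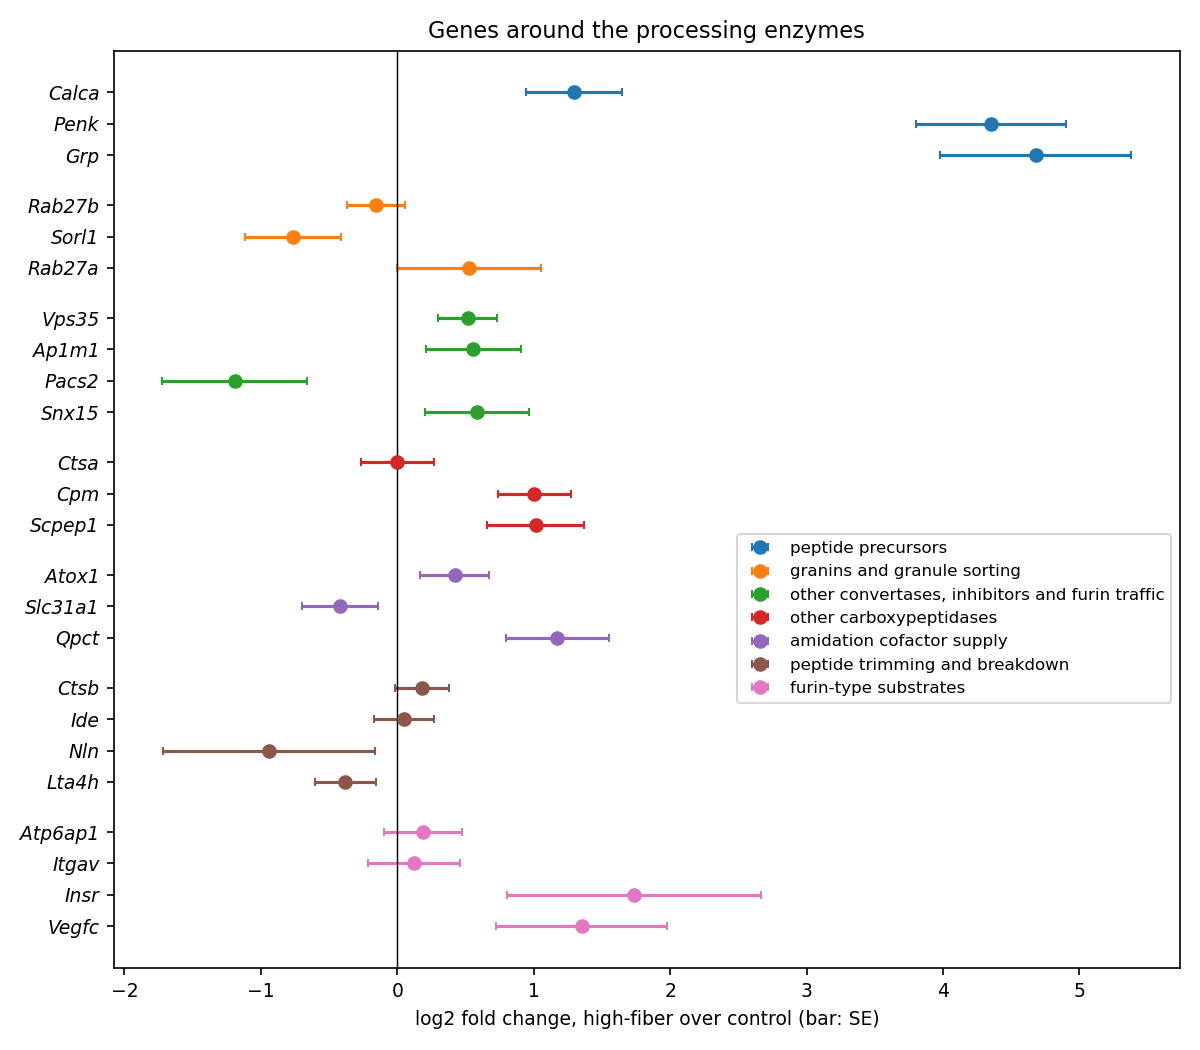
Log2 fold change (high-fiber over control) of the genes named by rule from each of 7 role lists, with SE as bars. Penk (4.35) and Grp (4.68) lie farthest to the right, and Pacs2 (-1.19) farthest to the left, with all libraries in the fit.

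All 13 listed ILC2 markers were detected, with a summed level of 19791 to 20587 CPM in the high-fiber libraries and 15281 to 17998 CPM in the control libraries. Glial (3 of 6 at 0) and stromal (2 of 7 at 0) markers each summed to less than 4 CPM in any library. Epithelial markers (5 of 8 at 0) summed to 31.9 to 42.0 CPM in the high-fiber libraries and 31.0 to 38.3 CPM in the control libraries, nearly all of it Epcam and Lgals4. Endothelial markers (1 of 6 at 0, Kdr) summed to 42.1 to 65.1 CPM in the high-fiber libraries and 42.4 to 42.7 CPM in the control libraries, nearly all Pecam1. Markers of macrophages, monocytes and dendritic cells (1 of 11 at 0) summed to 380.3 to 404 CPM in the high-fiber libraries and 225 to 344 CPM in the control libraries, led by Apoe and Zbtb46. Those of B and plasma cells (0 of 9 at 0), led by Ighm and Igkc, summed to 760.2 to 1774 CPM in the high-fiber libraries and 637 to 655 CPM in the control libraries. T cell markers (3 of 13 at 0), led by Trbc1 and Cd3g, summed to 914 to 1011 CPM in the high-fiber libraries and 940.4 to 1078 CPM in the control libraries. The ILC2, macrophage and B cell sums moved with Pcsk1, Furin and Cpd, and their part was not tested. Within the B and plasma cell list, Ighm overlapped between the diets, while the plasma cell genes Igkc, Jchain and Igha lay apart and were named after their values were seen. Igkc was at 112 and 458 CPM in the high-fiber libraries, against 37.4 and 4.15 CPM in the control libraries (log2 fold change 3.68 ± 0.93, SE). The log2 fold changes of Jchain and Igha were 3.21 ± 0.84 and 2.96 ± 1.03 (SE), and these 3 genes had unadjusted p below 0.05. EdgeR called 0 markers in any list, and DESeq2 called 1, the T cell gene Themis, lower. Themis averaged 1.96 ± 0.219 CPM on the high-fiber diet and 14.0 ± 2.75 CPM on the control diet (SD, n = 2 each). Uchl1, Cd79b, Cd3g, Il5 and Icos (higher) and Cpa3 and Themis (lower) also had unadjusted p below 0.05. Of these, Uchl1 passed the filter on low counts through its high-fiber libraries alone, and Cpa3 through its control libraries alone.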

How the data were processed

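Sorted cells were amplified with the SMARTer Ultra Low kit, per the labels' protocols. CASAVA 1.8.2, STAR 2.3.0 and mm10 stand in the submitters' processing notes with no role; what counted the reads, and on which strand, is not given in the sources used here. The authors deposited raw counts, whole numbers by NCBI gene identifier for each library, and 25275 of the 27179 identifiers matched a symbol in RefSeq GRCm38.p6.

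EdgeR 4.0.16 in R 4.3.3 was run with filterByExpr, TMM, glmQLFit (legacy=FALSE, not the package default), glmQLFTest and Benjamini-Hochberg adjustment over 11841 genes, checked on simulated data. Each SE is the log2 fold change divided by the root of its F. Alternatives were DESeq2 1.42.0, limma-voom (limma 3.58.1), other scalings and filters, legacy=TRUE, robust fitting, a replicate block, an adjusted p of 0.1 and each library left out. Lengths by the union of exons were added after seeing the data. Intervals and floors reflect counting alone and treat counts as independent. PCR copies of a molecule are not independent, so intervals and floors can be too narrow even for counting error.

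The members and gene lists were chosen with earlier results of these data known. Named from each list were genes past the threshold and the 2 of highest mean CPM. The 2 of largest change with a mean of at least 5 CPM and diets that do not overlap were named too. From marker lists of other cells, the rule was the 2 of highest mean CPM. It was not followed throughout: no glial or stromal gene was named. Elavl4 was left out for enteric neurons and Cldn5 for endothelial cells. Npy, Ucn2, Calcb, Cpa3, Slc23a1, the genes named as at 0, and Pcsk4 and Mbtps1 were named after their values were seen. So were the markers Igkc, Jchain, Igha, Cd79b, Themis, Il5 and Icos.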

Additional observations from a re-analysis of the deposited data

How the results depend on the processing

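The count of 4 genes called over all genes became 0 with no filter on low counts, with limma-voom, with the older quasi-likelihood fit and with the replicate block, 9 with a filter of 5 CPM in 2 libraries and 234 with DESeq2. It was 0 to 1 with a library left out. The count of processing genes called was 0 and became 1 (Pcsk1) with the 5 CPM filter and 2 (Pcsk1 and Cpe) with DESeq2. It stayed 0 with each library left out. The count of listed pathway genes called was 0 and became 1 (Penk) with the 5 CPM filter and 5 with DESeq2. The Pcsk1 log2 fold change lay between 2.19 and 2.48 over 15 settings. Of these, the adjusted p of 0.1 reuses the main fit, and robust fitting gave the same 2.32. Pcsk7 turned sign without scaling factors (-0.0028), with DESeq2 (-0.021), limma-voom (-0.29), the older fit (-0.029) and the replicate block (-0.18), and ran from -1.57 to 0.71 with a library left out; the cause was not tested. The other 5 tested processing genes kept their direction in every setting that could fit them. The labels do not say what same-numbered libraries of the 2 diets share beyond the number. Totals were alike within a number: 29263068 (high-fiber) and 30406730 (control) for library 1, and 20750263 and 20253987 for library 2. Deviations of same-numbered libraries correlated at 0.041, and the block turned no processing gene other than Pcsk7. Whether the numbers mark a batch was not tested. Pcsk2, Cpe, Pam and Scg5 had under 10 CPM in every library. On the high-fiber diet, Pcsk2 (7 and 0 counts) and Scg5 (35 and 0 counts) were at 0 in library 2, which had the lower total. On the control diet, Scg5 had 0 counts in library 1, which had the higher total, and 9 in library 2. The part of library totals in these zeros was not tested. Among pathway genes named by rule, Ctsa, Ide, Itgav and Atp6ap1, with values near 0, turned sign with a library left out: -0.28 for Ctsa and -0.21 for Atp6ap1 without high-fiber library 1, and -0.20 for Itgav without control library 2. Lengths by the union of exons were chosen after seeing the data. With them, the mean Pcsk1 share among the convertase genes of the members was 56.0% on the high-fiber diet and 26.2% on the control diet. The main lengths gave 42.2% and 17.6%.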
